A study of Rattus norvegicus with 32 samples.

Results

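Sncb and Sncg encode beta-synuclein and gamma-synuclein, and they are 2 of the 34322 gene symbols in a count table of rat nucleus accumbens shell. Both were picked by symbol. Sncg was picked because its level under the neutral cue was lower with cannabidiol (CBD) in an earlier reading of these counts, so its values in that comparison, and in every comparison that shares those libraries, are given as a description with no test. The 32 RNA-seq libraries form 4 groups of 8, and every library carries the genotype label WT and the tissue label brain. All groups came from rats that received fear conditioning with shock paired either with a neutral cue or with a lemon odour, which is called the anxiety cue here. Before anxiety tests with that cue the rats were given vehicle or CBD, and tissue was taken after the last shock. Each of the 4 groups is thus a pairing of drug (vehicle or CBD) with cue (neutral or anxiety). No group without shock is in the data used here, and the labels used here give no strain, sex, age or CBD dose. They also do not say that each library is a separate rat, so p-values measure only the spread between libraries, which may be technical. Libraries are numbered 1 to 8 within a group in the order of deposit, which pairs nothing across groups.

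Synucleins are small, natively unfolded proteins that bind curved lipid membranes. Beta-synuclein sits at presynaptic terminals throughout the forebrain, on the surface of synaptic vesicles and beside the SNARE proteins that fuse them. Gamma-synuclein is known from the axons of sensory, motor and some cholinergic and monoamine neurons, and also from fat cells, where it is bound to lipid droplets. For that reason the counts were set beside Plin1, the perilipin that coats fat cell lipid droplets, and Slc17a6, which loads glutamate into the vesicles of subcortical neurons and is not a gene of the GABA-releasing medium spiny neurons of the accumbens. In bulk tissue, fewer cells of a type and less RNA per cell cannot be told apart.

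The promoters of the 2 genes are shown as background, and no relation of their sequence to the counts was tested. Each line holds the 250 bases before the RefSeq transcription start in the GRCr8 assembly, read 5′ to 3′ on the strand of the gene. Sncg lies on the minus strand (chr16:9711337-9711586) and Sncb on the plus strand (chr17:9851684-9851933). Capitals mark matches to GGGCGG, the core of a GC box, or to CANNTG, the E-box, on either strand.
Sncg: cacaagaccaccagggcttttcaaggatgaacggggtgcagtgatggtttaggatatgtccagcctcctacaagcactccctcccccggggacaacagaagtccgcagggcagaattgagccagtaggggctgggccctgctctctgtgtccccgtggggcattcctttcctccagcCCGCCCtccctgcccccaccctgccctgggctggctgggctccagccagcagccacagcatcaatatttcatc
Sncb: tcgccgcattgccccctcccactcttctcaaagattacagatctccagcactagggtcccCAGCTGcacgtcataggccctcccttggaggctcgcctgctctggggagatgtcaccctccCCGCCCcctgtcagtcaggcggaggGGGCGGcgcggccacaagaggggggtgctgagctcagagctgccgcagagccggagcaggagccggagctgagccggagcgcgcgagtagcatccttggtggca
The Sncg window had a G and C content of 61.6% with 1 GC box core and 0 E-boxes. The Sncb window had a G and C content of 67.2% with 2 GC box cores and 1 E-box, and none of the matches overlapped. Of 33469 RefSeq promoter windows of this length, 30.5% held GGGCGG and 65.5% held CANNTG. The TATA box, TATAAA, was in 12.9% of windows and AGGTCA, a motif bound by nuclear receptors, in 14.1%, and neither string was in either window. These matches describe letters only, and binding was not measured.

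Sequencing gave totals of 11651537 to 24002424 counted reads per library, and 17059 of the 34322 genes passed the filter on low counts, both synuclein genes among them. The nucleus accumbens label was checked on 19 medium spiny neuron markers, all of which passed the filter. Drd1, the D1 dopamine receptor, was present in every library, with its lowest level of 56.6 CPM in vehicle neutral-cue library 4. CPM here is a count divided by the library total after scaling by trimmed means (TMM) and multiplied by 1000000. The summed level of the 19 markers was 2552 to 11873 CPM in the vehicle neutral-cue group and 8662 to 12231 CPM in the CBD neutral-cue group. It was 2907 to 13933 CPM in the vehicle anxiety-cue group and 4369 to 14661 CPM in the CBD anxiety-cue group. Libraries therefore differed in content within groups. At least 5 CPM of Plin1 was found in 10 libraries, of which 5 were vehicle neutral-cue, 3 vehicle anxiety-cue and 2 CBD anxiety-cue libraries. At least 20 CPM of Slc17a6 was found in 5 libraries, of which 3 were vehicle neutral-cue, 1 vehicle anxiety-cue and 1 CBD anxiety-cue libraries. None of the 8 CBD neutral-cue libraries was in either set, so the CBD effects are given below with and without those libraries.

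Sncg was a low-count gene with a wide range. Its level ran from 0.4 CPM in vehicle anxiety-cue library 7 to 24.1 CPM in vehicle neutral-cue library 4, a 60.2-fold range that rested on 7 to 500 reads per library. In the vehicle neutral-cue group the lowest level was 0.668, the median 7.02 and the highest 24.1 CPM, with a mean of 7.68 ± 7.43 CPM (SD, n = 8). With CBD under the neutral cue the lowest was 0.505, the median 0.799 and the highest 1.35 CPM, with a mean of 0.858 ± 0.341 CPM (SD, n = 8). Of the 8 vehicle libraries, 6 lay above all 8 CBD libraries, and vehicle libraries 6 and 7, at 0.869 and 0.668 CPM, lay within the CBD range.

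Under the anxiety cue the vehicle libraries ran from 0.4 through a median of 1.21 to 8.1 CPM, with a mean of 3.0 ± 3.11 CPM (SD, n = 8). The CBD libraries ran from 0.807 through a median of 1.80 to 6.53 CPM, with a mean of 3.01 ± 2.45 CPM (SD, n = 8). These groups overlapped almost entirely, and each held 3 libraries above 3 CPM and 5 below it. In order of mean level the groups stood as vehicle neutral cue, CBD anxiety cue, vehicle anxiety cue and CBD neutral cue, and no neighbours in that order differed by more than the larger of their SDs.

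Sncb, in contrast, had high counts in every library. Its level ran from 147 CPM in CBD anxiety-cue library 5 to 614 CPM in vehicle neutral-cue library 4, a 4.18-fold range. The vehicle neutral-cue libraries ran from 202 through a median of 285 to 614 CPM, with a mean of 330 ± 148 CPM (SD, n = 8). The CBD neutral-cue libraries ran from 157 through a median of 197 to 364 CPM, with a mean of 214 ± 65.9 CPM (SD, n = 8). The ranges overlapped: all 8 vehicle libraries lay above the CBD median, but CBD library 6 lay above 6 of the vehicle libraries.

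Under the anxiety cue Sncb ran from 148 through a median of 173 to 457 CPM with vehicle, a mean of 219 ± 104 CPM (SD, n = 8). With CBD it ran from 147 through a median of 229 to 397 CPM, a mean of 248 ± 95.4 CPM (SD, n = 8). By mean, the order of the groups was vehicle neutral cue, CBD anxiety cue, vehicle anxiety cue and CBD neutral cue, as for Sncg, and again neighbours differed by less than the larger SD. The levels of the 2 genes are not set against each other, since the counts were not divided by transcript length.

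**Figure D1:**
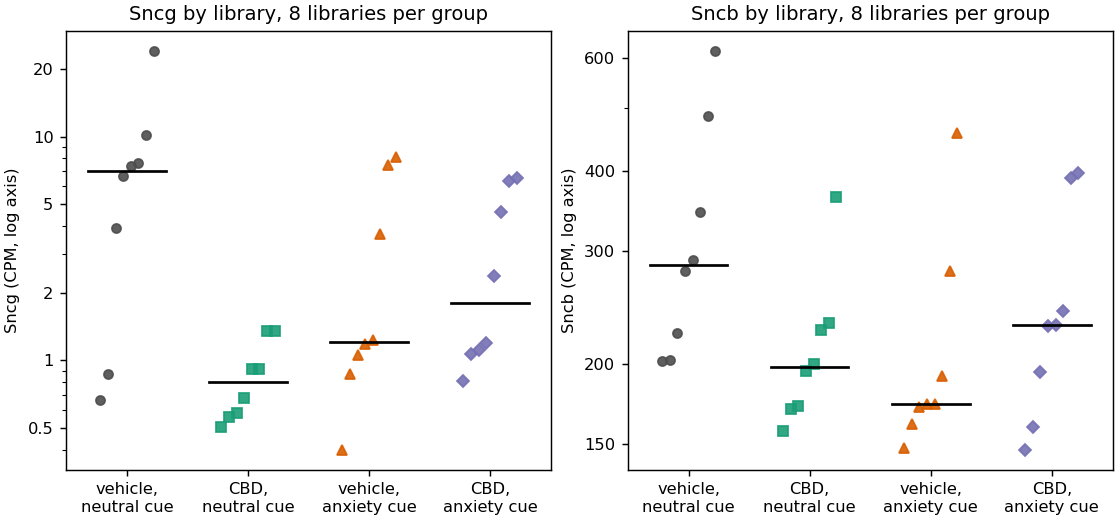
Sncg (left) and Sncb (right) in CPM on log axes for the 4 groups of 8 libraries, with a point per library and a line at each group's median. The CBD neutral-cue libraries lie at 0.505 to 1.35 CPM of Sncg, while each of the other groups spans from below 1 CPM to above 6 CPM.

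A model of the counts with a mean for each of the 4 groups gave the size of each difference. The comparisons below share groups, since the vehicle neutral-cue libraries enter both the CBD effect under the neutral cue and the cue effect with vehicle, and their values are therefore set side by side only. In each of the 4 pairwise comparisons and in the difference of the CBD effects, edgeR's quasi-likelihood test called 0% of 17059 genes at a Benjamini-Hochberg adjusted p under 0.05. This share is background over all genes. For the values given as a description, no call of either member is read from edgeR or DESeq2. The counts at an unadjusted p under 0.05 were 3852 genes for CBD under the neutral cue, 270 for CBD under the anxiety cue, 2175 for the cue with vehicle, 672 for the cue with CBD and 2353 for the difference of the CBD effects. DESeq2 called 349 genes for CBD under the neutral cue, 11 for the difference of the CBD effects and 0 in the other comparisons, where 279 (CBD under the anxiety cue), 2359 (cue with vehicle) and 688 genes (cue with CBD) had an unadjusted p under 0.05 by that tool.

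For CBD under the neutral cue, the comparison from which Sncg was picked, the fitted log2 fold change of Sncg was -3.17 (SE 0.656), and CBD libraries held 0.111 times the vehicle level. Sncb had a log2 fold change of -0.62 (SE 0.256) there. In the same comparison Plin1 stood at -4.65 (SE 1.044) and Slc17a6 at -1.71 (SE 0.791). All 4 genes were lower on average in the CBD libraries, and no p is given for them because the genes were picked with this comparison known.

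Under the anxiety cue, in 16 libraries that took no part in choosing Sncg, CBD and vehicle were compared with a test. Sncg had a log2 fold change of 0.01 (SE 0.591, 95% interval -1.19 to 1.21), with an adjusted p of 1 by edgeR's quasi-likelihood test. Sncb had a log2 fold change of 0.18 (SE 0.255, 95% interval -0.34 to 0.70), also with an adjusted p of 1 by the same test. Both differences were smaller than the spread between libraries. Plin1 had -1.10 (SE 0.873) and Slc17a6 0.16 (SE 0.770) in this comparison. The CBD effect under the anxiety cue minus that under the neutral cue was 3.18 on the log2 scale (SE 0.877) for Sncg and 0.80 (SE 0.361) for Sncb, given as a description because it contains the neutral-cue values.

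The anxiety cue was set against the neutral cue within each drug. With vehicle, the log2 fold change of Sncg was -1.36 (SE 0.584) and that of Sncb -0.59 (SE 0.256, 95% interval -1.11 to -0.07). The Sncb difference had an unadjusted p of 0.0274 and an adjusted p of 0.378 by edgeR's quasi-likelihood test, and it did not pass. With CBD, Sncg had a log2 fold change of 1.82 (SE 0.654) and Sncb 0.21 (SE 0.255, 95% interval -0.31 to 0.73, adjusted p of 0.995 by the same edgeR test). The marker genes took the same signs as the synuclein genes, with Plin1 at -1.34 (SE 0.846) and Slc17a6 at -1.07 (SE 0.769) with vehicle, and at 2.21 (SE 1.033) and 0.81 (SE 0.786) with CBD. Sncg had a biological coefficient of variation of 0.793 and Sncb of 0.351, against a median of 0.164 over all genes tested.

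High Sncg and high Plin1 were found largely in the same libraries. In the 10 libraries with at least 5 CPM of Plin1, Sncg ran from 3.69 to 24.1 CPM with a median of 7.02 CPM. In the other 22 libraries it had a median of 0.987 CPM and 20 of them held at most 2.40 CPM. The other 2, vehicle neutral-cue library 8 at 10.2 CPM and CBD anxiety-cue library 7 at 6.37 CPM, held as much Sncg as the first set with 1.84 and 0.595 CPM of Plin1. The limit of 5 CPM fell in a gap, since the lowest Plin1 level above it was 5.95 CPM and the highest below it 2.06 CPM.

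**Figure D2:**
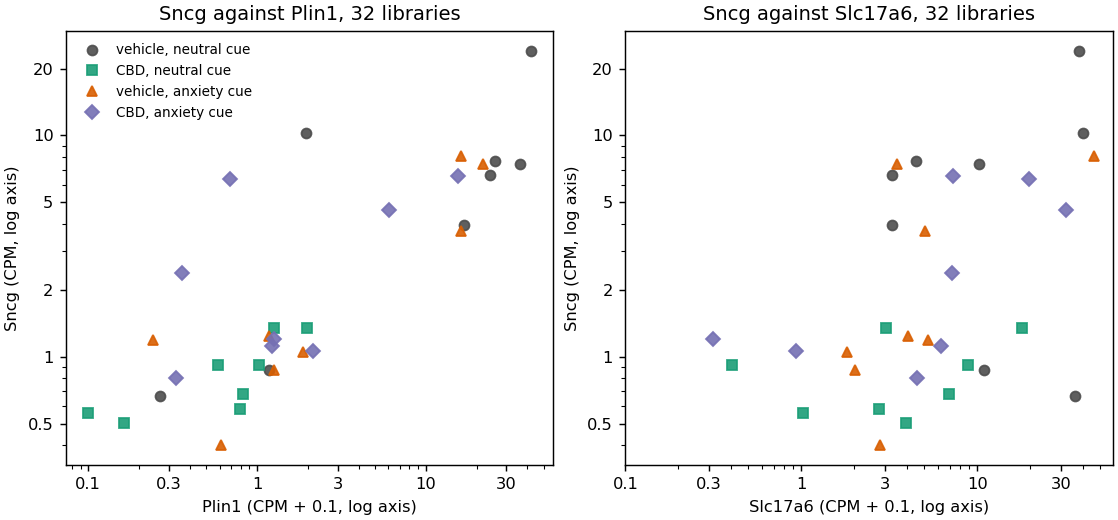
Sncg against Plin1 (left) and against Slc17a6 (right), all in CPM on log axes with 0.1 added to the marker, with a point per library and a symbol per group. Every library with at least 5 CPM of Plin1 has at least 3.69 CPM of Sncg, and 2 libraries with under 2 CPM of Plin1 reach 6.37 and 10.2 CPM.

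Some other genes of fat cells stood with Plin1, and others did not. Of 22 fat cell markers, 21 were in the table and 16 passed the filter, and 5 of the 16 were higher in all 10 Plin1-high libraries than in any of the other 22. Among all 17059 genes tested, 0.117% were. Those 5 were Plin1 itself, which set the libraries apart, Adipoq (adiponectin), Cidec, a protein that fuses lipid droplets, Fabp4, a fatty acid carrier, and Lipe, hormone-sensitive lipase. Adipoq was 2.05 to 20.9 CPM against 0 to 0.99 CPM, Cidec 3.42 to 17.3 against 0 to 1.92 CPM, Fabp4 1.26 to 4.72 against 0 to 0.457 CPM, and Lipe 22.3 to 39.4 against 14.6 to 21.5 CPM. Lep, the hormone leptin, was 1.16 to 9.44 against 0 to 1.22 CPM, with 9 of the 10 libraries above all others. For Plin4, Thrsp, Acvr1c, Pck1 and Dgat2, 0 of the 10 libraries lay above all others. Cfd was 0.105 to 1.13 against 0.0595 to 0.949 CPM, with 2 of the 10 above all others. Retn (resistin) had 0 reads in 27 libraries and Aqp7, the glycerol channel, in 28, and no marker of the list was at 0 in all libraries. Summed over the list, which also holds genes that brain tissue expresses, levels ran from 263 to 586 CPM in the vehicle neutral-cue group, 339 to 550 in the CBD neutral-cue group, 379 to 657 in the vehicle anxiety-cue group and 300 to 484 CPM in the CBD anxiety-cue group.

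Because the libraries formed separate clusters of Plin1 level, the relation was computed within each set on log2 CPM. In the 10 Plin1-high libraries, Pearson's r between Sncg and Plin1 was 0.662 and Spearman's rho was 0.636. In the 22 others r was 0.348 and rho was 0.52. Without the 2 libraries farthest from the median of Plin1, r was 0.473 in the first set and 0.212 in the second. These values are a description with no test, because both sets hold libraries of the comparison from which Sncg was picked.

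For Sncg and Slc17a6, in the 10 Plin1-high libraries r was 0.479 and rho 0.455, and r was -0.126 without the 2 libraries farthest from the median of Slc17a6. In the 22 others r was 0.443 and rho 0.308, and r was 0.545 without the 2 farthest. In those 22 libraries r was thus higher with Slc17a6 than with Plin1 and rho was lower, and the difference between the markers was not tested.

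The 2 libraries that held Sncg without Plin1 held much Slc17a6, 39.8 CPM in vehicle neutral-cue library 8 and 19.6 CPM in CBD anxiety-cue library 7, and were also rich in genes of basal forebrain cholinergic neurons. Vehicle neutral-cue library 8 had 79.9 CPM of Chat, the acetylcholine-synthesising enzyme, 79.2 CPM of Ngfr, a neurotrophin receptor, and 72.2 CPM of Lhx8, a cholinergic lineage factor. CBD anxiety-cue library 7 had 50.9 CPM of Chat, 45.1 CPM of Ngfr and 52.8 CPM of Lhx8. Prph, which encodes peripherin, an axonal filament of peripherally projecting neurons, stood at 10.4 and 7.02 CPM in the 2 libraries. Vehicle neutral-cue library 7 served as a contrast, because it had 36.1 CPM of Slc17a6 and 53.8 CPM of Lhx8 but only 24.4 CPM of Chat, 6.77 CPM of Ngfr, 3.01 CPM of Prph and 0.668 CPM of Sncg. High Slc17a6 was thus found both with and without high Sncg.

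Vehicle neutral-cue library 4, the highest in both synuclein genes, combined the marker sets. It had 42.1 CPM of Plin1, 20.9 CPM of Adipoq, 37.7 CPM of Slc17a6, 89.3 CPM of Chat, 110 CPM of Ngfr and 14.8 CPM of Prph. The 9 cholinergic markers summed to 182 to 731 CPM in the vehicle neutral-cue group, 158 to 258 in the CBD neutral-cue group, 170 to 333 in the vehicle anxiety-cue group and 181 to 431 CPM in the CBD anxiety-cue group. All 9 passed the filter and none was at 0 in all libraries. These libraries were singled out after their values were seen, and the part of either cell type in the Sncg level was not tested.

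Sncb followed Slc17a6 closely, as it did many other genes ranked further on. Over all 32 libraries Pearson's r on log2 CPM was 0.872 and Spearman's rho 0.885. These values pool the 4 groups, among them those of the comparison from which Sncg was picked, and are given as a description. Permutation tests, two-sided, are given within the 2 anxiety-cue groups only, since the neutral-cue groups are those of that comparison. Without the 2 libraries farthest from the median of Slc17a6, r was 0.893. Within the vehicle neutral-cue group r was 0.917 and within the CBD neutral-cue group 0.87, both given as a description. Within the vehicle anxiety-cue group r was 0.896 (exact permutation p = 0.014, adjusted p = 0.014 over 4 groups). But rho there was 0.643 (exact permutation p = 0.0962) and r was 0.456 without the 2 farthest libraries, so the value of 0.896 rested on them. Within the CBD anxiety-cue group r was 0.854 (exact permutation p = 0.01, adjusted p = 0.0133) and rho 0.952 (exact permutation p = 0.00114, adjusted p = 0.00446). The relation thus passed the test in the CBD anxiety-cue group, and in the vehicle anxiety-cue group it was not stable. In the neutral-cue groups, without the 2 farthest libraries, r was 0.952 with vehicle and 0.875 with CBD, as a description.

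**Figure D3:**
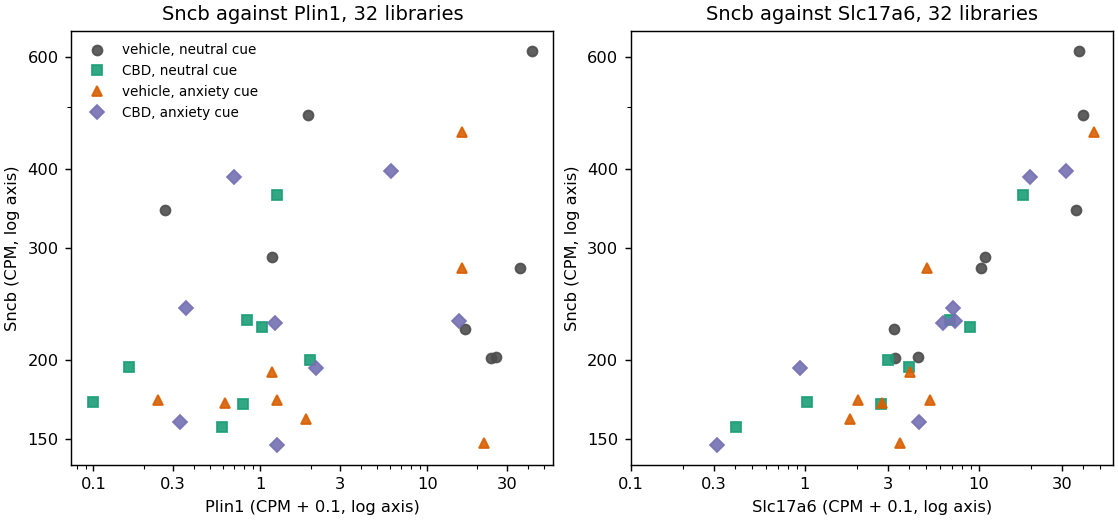
Sncb against Plin1 (left) and against Slc17a6 (right), in CPM on log axes with 0.1 added to the marker, with a point per library and a symbol per group. Sncb rises with Slc17a6 across the 32 libraries (r = 0.872), while libraries with little Plin1 span most of the Sncb range.

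The 5 libraries with at least 20 CPM of Slc17a6 held 344 to 614 CPM of Sncb. Among the other 27 the highest was CBD anxiety-cue library 7, with 389 CPM of Sncb and 19.6 CPM of Slc17a6, just under the limit. CBD neutral-cue library 6 was next, with 364 CPM of Sncb and 18.0 CPM of Slc17a6, and its level of Slc17a7, which does this work in cortical neurons, was 938 CPM. With Plin1, Sncb had a Spearman's rho of 0.312 over all 32 libraries, against 0.885 with Slc17a6. Within the Plin1 clusters Pearson's r of Sncb with Plin1 was -0.0232 in the 10 Plin1-high libraries and 0.17 in the 22 others. These values also pool groups and are given as a description. The 16 tested of 18 subcortical glutamatergic and septal markers had none at 0 in all libraries, and the 18 summed to 189 to 659 CPM in the vehicle neutral-cue group, 135 to 242 in the CBD neutral-cue group, 150 to 521 in the vehicle anxiety-cue group and 149 to 431 CPM in the CBD anxiety-cue group.

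The group differences were then refitted with the markers in the model or with the marked libraries left out. For Sncg under the neutral cue, the log2 fold change with CBD was -1.44 with log2 Plin1 as a covariate and -0.82 with Plin1 and Slc17a6 together. It was -2.21 (SE 0.617) without the 10 Plin1-high libraries, which left 3 vehicle and 8 CBD libraries, and -2.63 without the 5 Slc17a6-high libraries. Vehicle libraries 6 and 7, kept in the fit without Plin1-high libraries, held 0.869 and 0.668 CPM of Sncg, within the CBD range. The value of -2.21 thus rested on vehicle library 8, at 10.2 CPM. A further refit, chosen after seeing the data, left out libraries with at least 5 CPM of Plin1 or 15 CPM of Slc17a6 and gave -0.19 (SE 0.582). It kept 1 vehicle neutral-cue library, assumed to vary like those of the other groups, beside 7 CBD libraries. This choice also left out all 12 libraries with at least 3 CPM of Sncg, so its small value follows from the choice and is given only as a value. Leaving out any 1 library kept the Sncg difference between -3.35 and -2.65.

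For Sncb under the neutral cue, the CBD difference was -0.12 with Slc17a6 as a covariate, -0.006 with both covariates and -0.17 without the 5 Slc17a6-high libraries. It was -0.81 without the 10 Plin1-high libraries, where the 3 vehicle libraries left included 2 of the Slc17a6-high ones. Under the anxiety cue, Sncg stood at 1.17 (SE 0.611, adjusted p of 1 by edgeR's quasi-likelihood test) without the Plin1-high libraries, and none of the refits or leave-one-out fits run brought either gene past the threshold there. The cue difference of Sncb with vehicle, -0.59 with all libraries, was -0.25 with Slc17a6 as a covariate, -0.21 with both covariates and -0.39 without the Slc17a6-high libraries, with adjusted p of 0.824, 0.833 and 0.559 by edgeR's quasi-likelihood test. It was -1.12 without the Plin1-high libraries (adjusted p of 0.00904 by the same edgeR test), a refit with 3 vehicle neutral-cue libraries in which 16.9% of 17565 genes were called. Libraries 7 and 8 among those 3 were Slc17a6-high, so no call of Sncb is drawn from that refit. In the refit chosen after seeing the data the Sncb cue difference was -0.78, but with 1 vehicle neutral-cue library no call is drawn from it.

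**Figure D4:**
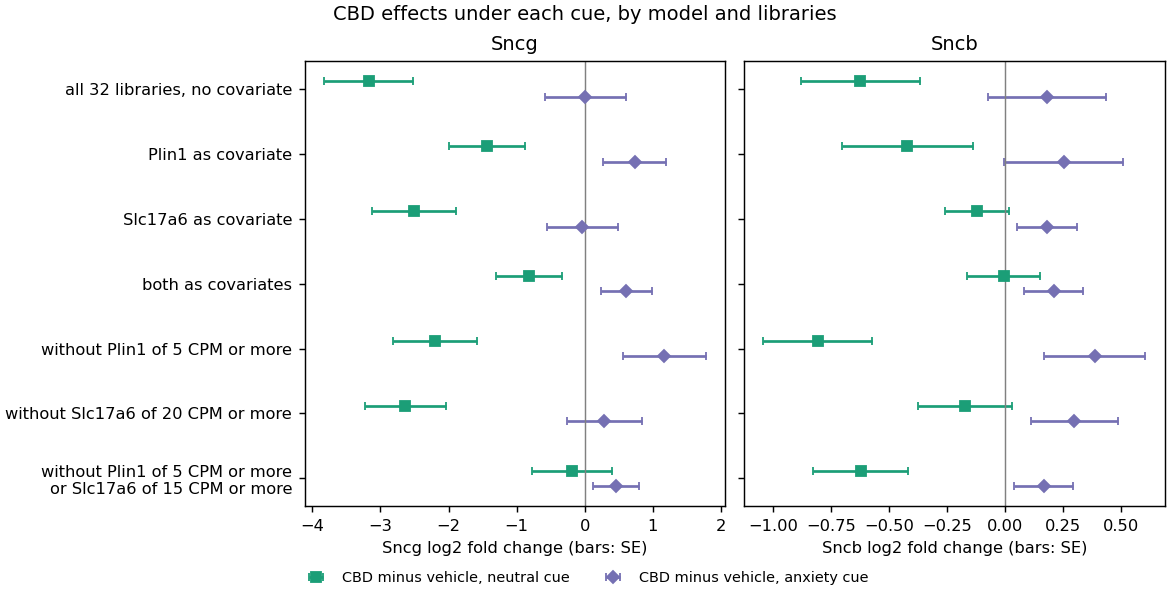
Log2 fold change of CBD over vehicle for Sncg (left) and Sncb (right), with SE bars, under the neutral cue (squares) and the anxiety cue (diamonds), for the fit of all 32 libraries, fits with marker covariates and fits without marker-rich libraries. The neutral-cue value of Sncg is -3.17 in the top row and -0.815 with both covariates, and that of Sncb is -0.62 and -0.006. The bottom row gives -0.19 for Sncg. Its fit left out all 12 libraries with at least 3 CPM of Sncg and kept 1 vehicle neutral-cue library, so this value follows from the choice.

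The partners of synucleins were described by lists of genes. With all 32 libraries, edgeR's quasi-likelihood test called no gene of any list in any comparison, as was the case for 0% of all genes. The counts at an unadjusted p and by DESeq2 over all genes are those given above. Without the 10 Plin1-high libraries, where 15.7% of 17565 genes were called for CBD under the neutral cue and 16.9% for the cue with vehicle, calls included 6 and 9 of 36 vesicle and SNARE genes and 10 and 8 of 33 handling enzymes. All log2 medians below stand beside an all-gene median of 0.005 for CBD under the neutral cue, -0.003 for CBD under the anxiety cue, 0 for the cue with vehicle and -0.003 for the cue with CBD. The 36 synaptic vesicle and SNARE genes, the machinery beside which beta-synuclein works, had medians of 0.038, -0.01, 0.009 and -0.027 in that order. Between 15 and 20 of the 36 were above 0 in each comparison. Sv2b, a synaptic vesicle glycoprotein, had 1.25 (SE 0.349) with CBD under the neutral cue. Bsn, a scaffold protein of the active zone, had 0.42 (SE 0.12) with CBD under the neutral cue and 0.32 with the anxiety cue in vehicle rats. Hspa8, a chaperone of clathrin uncoating, had -0.16 in that cue comparison. Cplx2, a complexin that clamps SNARE fusion, had -0.13 with CBD under the anxiety cue. Pclo, another active zone scaffold, had -0.33 and Rims1, a vesicle priming factor, -0.29 with the anxiety cue in CBD rats. Members thus lay on both sides of 0, with medians close to those of all genes.

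Enzymes that fold, modify or clear synucleins made up the next list, with 33 of 35 in the table. Their medians were -0.094, 0.013, -0.084 and 0.025, with 6, 21, 6 and 21 of the 33 above 0. Ctsd, the lysosomal protease cathepsin D that degrades synucleins, had -0.43 (SE 0.119) with CBD under the neutral cue and -0.36 (SE 0.119) with the anxiety cue in vehicle rats. Ctsb, another lysosomal cathepsin, had -0.28 (SE 0.076) and -0.20 (SE 0.076) in the same comparisons. Stub1, a ubiquitin ligase, had 0.088 with CBD under the anxiety cue.

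The 12 neurofilament and axonal cytoskeleton genes, which share the axon with gamma-synuclein, had medians of -0.32, 0.061, -0.30 and 0.12, with 1, 9, 0 and 10 of 12 above 0. Prph had -1.85 (SE 0.646) with CBD under the neutral cue, 0.79 (SE 0.625) with CBD under the anxiety cue, -1.29 (SE 0.623) with the anxiety cue in vehicle rats and 1.35 (SE 0.647) with it in CBD rats. Nefh, the heavy neurofilament subunit, had -1.02 (SE 0.365) with CBD under the neutral cue. Without the 5 Slc17a6-high libraries the median of the list for CBD under the neutral cue was -0.083. Without the 10 Plin1-high libraries 7 of the 12 genes were called in that comparison, beside 15.7% of all 17565 genes tested. That refit kept 3 vehicle neutral-cue libraries, and libraries 7 and 8 among them were Slc17a6-high.

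Markers of cell types followed, with medians in the same order of comparisons. The 16 subcortical glutamatergic and septal markers tested had -0.86, 0.18, -0.61 and 0.38, the 9 cholinergic markers -0.78, 0.18, -0.50 and 0.39, and the 16 fat cell markers -0.56, -0.47, -0.35 and 0.19. The 19 medium spiny neuron markers had 0.52, -0.044, 0.46 and -0.086, with all 19 above 0 for CBD under the neutral cue and for the cue with vehicle. The 5 tested of 10 monoamine neuron markers, a further cell type known for gamma-synuclein, had 0.20, -0.095, 0.074 and -0.17. The 10 oligodendrocyte markers had -0.41, -0.15, -0.11 and 0.13. The 9 hepatocyte markers tested had 2.46, 0.25, 0.49 and -0.43, and the 6 cortical neuron markers 0.77, 0.21, -0.41 and -0.78. Astrocyte (8), microglia (8), endothelial (7) and choroid plexus (4) markers had -0.049, -0.21, -0.11 and -0.54 for CBD under the neutral cue. For the cue with vehicle they had -0.13, -0.15, 0.091 and -0.19. In the comparisons where Sncg and Sncb were lower, the medians of subcortical, cholinergic, fat, oligodendrocyte, astrocyte, microglia and choroid plexus markers were below 0. Those of medium spiny neuron, hepatocyte and monoamine markers were above 0, and those of endothelial and cortical markers changed sign between these comparisons. The part of tissue content in the synuclein values was examined only by the refits given above.

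**Figure D5:**
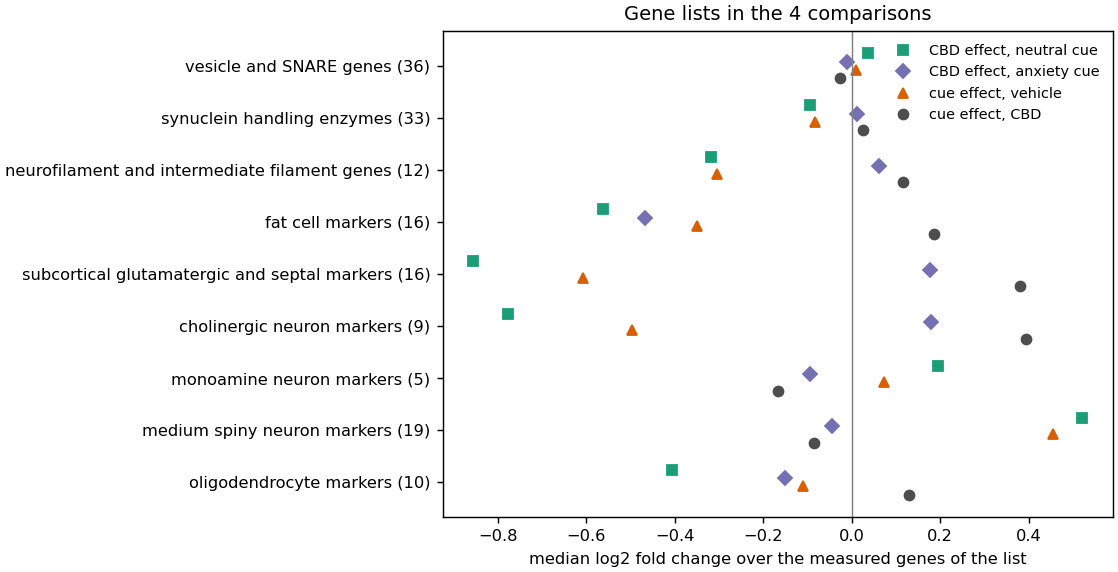
Median log2 fold change of 9 of the gene lists in the 4 pairwise comparisons, with the number of genes tested after each list name. Subcortical (-0.86) and cholinergic (-0.78) markers have the lowest medians of the plotted lists for CBD under the neutral cue, while vesicle and SNARE genes (0.038) sit near 0.

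The genes most like each member were ranked by Spearman's rho of log2 CPM over the 32 libraries among 14247 named genes that passed the filter. For Sncg these were Plin1 (0.793), Myo1c (0.753), an unconventional myosin, Fads3 (0.751), of the fatty acid desaturase family, Ccdc61 (0.738) and Npr3 (0.728), the clearance receptor for natriuretic peptides. Within the 22 libraries under 5 CPM of Plin1, a set chosen after seeing the data, the genes most like Sncg were Mpi (0.798), Ppp1r15a (0.737), Atic (0.718), Rraga (0.711) and Ggt7 (0.698), and Plin1 was at rank 237 with 0.52. Over all 32 libraries Sncb had a rho of 0.485 with Sncg and Slc17a6 one of 0.447. For Sncb they were Palm3 (0.963), of the paralemmin family, Olfm1 (0.962), a secreted olfactomedin of neurons, Stmn3 (0.957), a stathmin that binds tubulin, Armh4 (0.954) and Vstm2b (0.949). Slc17a6 stood at rank 111.5 in likeness to Sncb, with 0.885. The best match of Sncb was closer than that of Sncg on this measure. The points share library, depth and tissue content, the Plin1 clusters add to the Sncg values, and no test was made.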

How the data were processed

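The authors deposited whole-number read counts per gene symbol for the 32 libraries in 1 table, per the file header. RNA was selected by polyA and sequenced on Illumina, per the labels' protocols. The submitters' processing notes name STAR, featureCounts and DESeq2 and the builds mRatBN7.2 and Rnor_6.0 without saying which build served which step. For tool versions, annotation and strand the settings are not given in the sources used here. Reads of overlapping or antisense genes may therefore be mixed. Columns were matched to libraries by title. The table had 0 rows without a gene name and 0 unused columns.

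The counts were fitted in edgeR 4.0.16 (R 4.3.3, limma 3.58.1) with a mean for each of 4 groups, the TMM normalization, filterByExpr, which left out 17263 genes, and quasi-likelihood tests adjusted by Benjamini-Hochberg at a threshold of 0.05 over all genes tested. CPM values are scaled by TMM, and log2 CPM uses a prior count of 2. Alternatives were DESeq2 1.42.0, other scaling and filters, marker covariates and left-out libraries. The fitting code was tested on simulated data. No pair of libraries within a group, of 112, held identical values or differed by less than sampling noise. Correlations with the markers were computed in numpy 2.4.6, with scipy 1.17.1 for ranks and the adjustment of p. The rankings of genes by likeness were computed in R. Members and gene lists were chosen with earlier results of these data known. Besides Sncb, Sncg, Plin1 and Slc17a6, the rule for named genes took up to 2 genes per list and comparison with the smallest p, as values only, and the 5 genes most like each member by Spearman's rho. Genes named for the content of single libraries were chosen after their values were seen. Promoters came from RefSeq in GRCr8, a build other than those named for the counts, and 27234 of the symbols matched RefSeq.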

Additional observations from a re-analysis of the deposited data

Results flagged for a closer look

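In 3 of the 8 combinations of gene and group, 1 library stood apart from the other 7 by a gap that was large for the range of its group (Dixon's test at the 95% level). The rule was applied to CPM, not to log2 CPM. Its rate by chance of about 1 in 20 groups holds for normally distributed values, which was not checked here, so no excess over chance is read from the 3. Vehicle neutral-cue library 4 had 24.1 CPM of Sncg, and the next library of its group had 10.2 CPM. Without it the CBD difference of Sncg under the neutral cue was -2.65 on the log2 scale. CBD neutral-cue library 6 had 364 CPM of Sncb, and the next had 231 CPM. Vehicle anxiety-cue library 5 had 457 CPM of Sncb, and the next had 279 CPM. The 3 libraries, in this order, held 37.7, 18.0 and 45.7 CPM of Slc17a6, so CBD neutral-cue library 6 lay under the limit of 20 CPM.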

How the results depend on the processing

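No paired analysis was possible because library titles are unique numbers and the replicate numbers follow only the order of deposit. For CBD under the neutral cue, the number of genes called, 0 with all libraries, was 349 with DESeq2, 4 when only those groups were fitted, 2761 without Plin1-high libraries, 29 without Slc17a6-high libraries and 3116 without either (the refit chosen after seeing the data, with at least 5 CPM of Plin1 or 15 CPM of Slc17a6 left out). For the cue with vehicle it was 2972, 15 and 2988 in the last 3 settings. For the difference of CBD effects it was 11 with DESeq2, 1475 without Plin1-high libraries and 2261 without either. The Sncg difference for CBD under the neutral cue was -1.44 with Plin1 as covariate, -0.82 with both covariates and -0.19 without either set. That of Sncb was -0.12 with Slc17a6 as covariate and -0.006 with both. The refit without either set left out all 12 libraries with at least 3 CPM of Sncg and kept 1 vehicle neutral-cue library. Its Sncg values therefore follow from that choice and are given only as values. The difference of CBD effects became 1.42 for Sncg and 0.22 for Sncb with both covariates, and 0.65 for Sncg without either set. The Sncg cue difference with CBD became 0.74 without either set, and with vehicle 0.09. The Sncg difference for CBD under the anxiety cue turned to -0.037 with Slc17a6 as covariate. The Sncb cue difference with vehicle was -1.12 without Plin1-high libraries and passed the threshold there, as did 16.9% of 17565 genes. Vehicle neutral-cue libraries 7 and 8, kept in that refit, were Slc17a6-high at 36.1 and 39.8 CPM, so no call of Sncb is drawn from it. The Sncb cue difference with vehicle was -0.78 without either set, where 1 vehicle neutral-cue library was left and no call is drawn. The cause of these shifts was not tested beyond the refits themselves. Leaving out 1 library at a time gave -3.35 to -2.65 for Sncg and -0.78 to -0.44 for Sncb with CBD under the neutral cue, the smaller sizes both without vehicle neutral-cue library 4. Under the anxiety cue it gave -0.26 (without CBD anxiety-cue library 1) to 0.40 (without vehicle anxiety-cue library 5) for Sncg and 0.051 to 0.42 for Sncb. The cue differences were -1.75 to -0.83 for Sncg and -0.84 to -0.40 for Sncb with vehicle, and 1.55 to 1.97 for Sncg and 0.084 to 0.36 for Sncb with CBD. Genes called ranged from 0 to 165 for CBD under the neutral cue and from 0 to 10 for the difference of CBD effects, both highest without vehicle anxiety-cue library 5. Depth is low for Sncg, which rested on as few as 7 reads in a library.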
